A study of Rattus norvegicus with 11 samples.

Results

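Junctions between the epithelial cells of the rat alveolus were followed through 7 named genes: the tight junction claudin Cldn3, the gap junction connexins Gja1, Gjb1 and Gjb2, the adhesion molecule Epcam, and the adherens junction genes Cdh1 and Ctnnb1. Members were all probe sets (groups of array probes read as 1 value) that the array's annotation pairs with exactly 1 of these genes. That gave 6 of the 8740 probe sets tested, in 5 of 4736 genes. Cldn3 (Entrez gene 65130) had 2 probe sets, and Gja1 (24392), Gjb1 (29584), Gjb2 (394266) and Epcam (171577) had 1 each. Cdh1, which encodes E-cadherin, and Ctnnb1, which encodes beta-catenin, had 0 probe sets annotated to them alone and were not analysed here.

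Total RNA was hybridised to 11 arrays: 3 of type II (TII) cells at day 7 of culture, 4 of freshly isolated type I (TI) cells and 4 of freshly isolated TII cells, the fresh cells being labelled day 0. TI cells are the flat cells that cover most of the alveolar surface, and TII cells are the cuboidal cells that make surfactant. The sources used here give no strain, age, isolation method or culture substrate, nor do they say that replicate arrays stand for separate animals, and p-values therefore measure only the spread between these arrays. One source field names TI cells for all 11 arrays, so groups follow the descriptions and titles.

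Tight junctions seal the space between neighbouring epithelial cells, and the claudin a cell makes helps set how tight that seal is and which ions pass. Gap junctions are channels of connexins that join the cytoplasm of adjacent cells, and in the alveolus they carry calcium signals between TI and TII cells. Epcam is a surface protein of simple epithelia that takes part in adhesion. Adherens junctions hold cells together through cadherins, which catenins tie to the actin cytoskeleton, and beta-catenin also carries the Wnt signal to the nucleus.

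The fresh arrays were highest for the markers of their own labels, while the cultured TII arrays were lowest of the 3 groups for TII markers. The summed signal of 7 TI marker genes, including Pdpn and Aqp5, was 11.27 to 11.72 (log2) in cultured TII, 13.34 to 13.43 in fresh TI and 10.29 to 10.34 in fresh TII cells. That of 6 TII marker genes, including 4 surfactant proteins, was 9.44 to 10.04, 11.83 to 13.27 and 14.78 to 14.88 in the same order, so surfactant signal was still present on the fresh TI arrays. All 6 were lower in cultured TII than in fresh TI cells. Of 17 leukocyte markers 3 rose and 3 fell in cultured against fresh TII cells (adjusted p under 0.05), against 34.6% of all genes called. In fresh TI cells 6 were higher and 3 lower, against 54.2%. Ptprc (CD45) lay at 5.33 to 5.40 in cultured TII, 5.79 to 6.18 in fresh TI and 5.50 to 5.59 in fresh TII cells. In culture Cd53, Cd48 and Itgam rose by 1.93 ± 0.43, 1.45 ± 0.16 and 0.57 ± 0.13. The 3 that fell, Cd74, Lyz2 and Aif1, differed by -3.62 ± 0.32, -2.45 ± 0.35 and -0.46 ± 0.08. Of 7 endothelial markers Edn1 rose by 1.49 ± 0.19 and Kdr fell by 0.55 ± 0.10 in culture, against 34.6% of all genes called. Vwf and Nos3 were higher in fresh TI cells, by 0.27 and 0.30, and Edn1 lower, by -1.71, against 54.2%. In RNA from bulk samples, fewer cells of a type and less RNA per cell cannot be told apart.

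The 5 genes took 5 different orders over the groups. Cldn3 was high in fresh TII cells only, with no difference detected between the other 2 groups. Epcam was highest in cultured TII, lower in fresh TII and lowest in fresh TI cells, and each step passed the test. Gja1 was high in cultured TII cells, with no difference detected between fresh TI and fresh TII. Gjb1 was lowest in cultured TII, higher in fresh TI and highest in fresh TII cells, again with each step past the test. Gjb2 was low throughout and slightly higher in fresh TI than in either other group. The regions around the annotated starts of the 3 genes with the greatest differences are printed because these genes took 3 different orders over the groups: Cldn3 at chr12:27346498-27346797 on the minus strand, Gja1 at chr20:36302314-36302613 on the plus strand and Epcam at chr6:12649629-12649928 on the minus strand (RefSeq, build GRCr8, 250 bases before and 50 after the start, 5′ to 3′). Capitals mark matches to the AP-1 motif TGANTCA, which is its own reverse complement, and to the E-box CAGGTG, read as CACCTG on the other strand.
Cldn3: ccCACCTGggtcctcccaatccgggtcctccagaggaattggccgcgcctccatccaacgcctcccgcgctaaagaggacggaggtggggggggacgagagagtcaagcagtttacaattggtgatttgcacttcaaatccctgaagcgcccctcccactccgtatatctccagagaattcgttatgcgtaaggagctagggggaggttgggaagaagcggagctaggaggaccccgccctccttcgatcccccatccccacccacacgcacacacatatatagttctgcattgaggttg
Gja1: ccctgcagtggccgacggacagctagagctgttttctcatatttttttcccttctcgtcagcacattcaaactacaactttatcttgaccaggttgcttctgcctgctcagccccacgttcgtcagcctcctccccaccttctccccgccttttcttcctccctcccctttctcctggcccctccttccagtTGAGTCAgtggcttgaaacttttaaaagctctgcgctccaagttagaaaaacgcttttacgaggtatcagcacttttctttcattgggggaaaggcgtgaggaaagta
Epcam: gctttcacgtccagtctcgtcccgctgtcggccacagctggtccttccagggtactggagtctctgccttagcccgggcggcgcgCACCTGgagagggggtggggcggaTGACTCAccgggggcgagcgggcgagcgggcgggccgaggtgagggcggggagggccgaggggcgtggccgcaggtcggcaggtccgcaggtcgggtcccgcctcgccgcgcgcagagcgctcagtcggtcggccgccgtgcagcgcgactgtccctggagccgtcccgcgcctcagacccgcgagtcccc
The AP-1 motif stood once in the Gja1 window, beginning 58 bases before the start, and once in the Epcam window, beginning 141 bases before it. The E-box stood once in the Cldn3 window, 248 bases before the start, and once in that of Epcam, 165 bases before it. Gjb2 also held 1 E-box, 9 bases before its start, and the Gjb1 window held 0 matches to either motif. Of 27457 rat promoter windows of the same length, 7.33% held the AP-1 motif and 18.7% the E-box. No match overlapped another in these windows, and a match describes letters only.

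**Figure D1:**
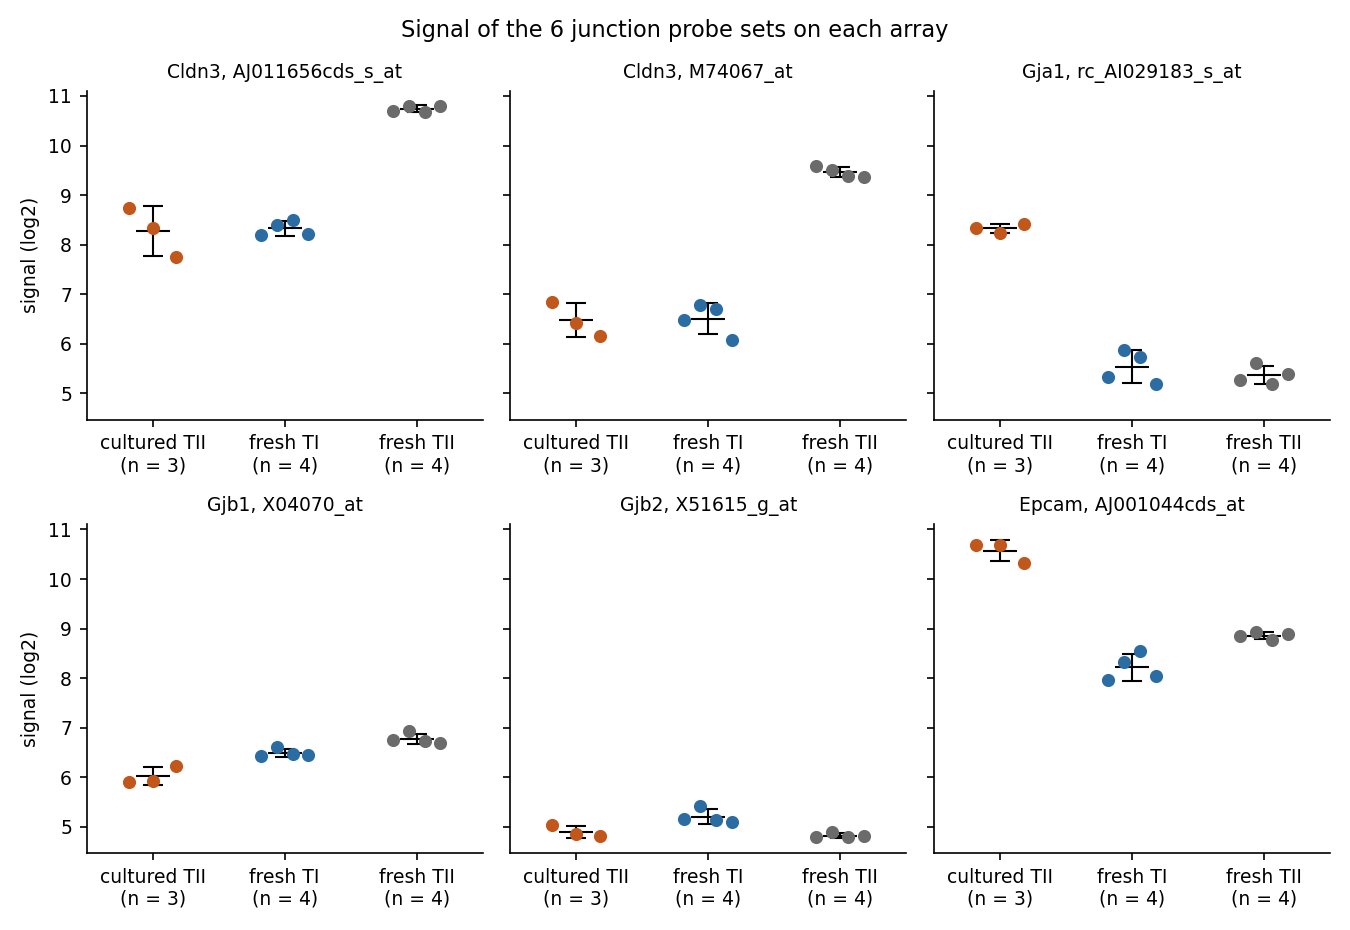
Signal (log2, y axis) of the 6 member probe sets on each array, by group (x axis). Points are arrays, long bars are group means and whiskers are standard deviations, with n = 3 cultured TII, 4 fresh TI and 4 fresh TII. Cldn3 is high in fresh TII cells, Gja1 and Epcam are high in cultured TII cells, and Gjb1 and Gjb2 move little; levels are not comparable between panels.

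The first comparison asked how junction genes changed in TII cells by day 7 of culture. Cldn3 fell 5.52-fold and 7.92-fold on its 2 probe sets, while Gja1 rose 7.80-fold and Epcam 3.29-fold. Gjb1 fell 1.68-fold, and Gjb2 showed no detectable change. Of the 6 probe sets, 2 rose and 3 fell (adjusted p under 0.05), against 33.4% of all 8740 probe sets called in this comparison, 19.1% higher and 14.3% lower. The arrays of the 2 groups did not overlap for 5 of the 6, against 43.3% of all probe sets.

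Cldn3, the claudin, had 8.75, 8.34 and 7.75 (log2) in cultured TII cells on the probe set AJ011656cds_s_at, against 10.7, 10.8, 10.7 and 10.8 in fresh TII cells. The lowest fresh TII array stood 1.92 above the highest cultured array. The difference was -2.46 ± 0.17 (log2, SE; adjusted p = 1.57e-07). The s in that probe set's name marks sequence shared by several transcripts. The other probe set, M74067_at, has no such mark and had 6.85, 6.42 and 6.16 in cultured TII cells, against 9.58, 9.51, 9.38 and 9.37 in fresh TII cells. Both probe sets thus fell in all 3 cultured arrays, and the second differed by -2.99 ± 0.17 (adjusted p = 2.37e-08). Replicate 3 of the culture was the lowest on both. Cultured TII arrays also spread more than fresh TII arrays, with an SD of 0.50 against 0.06 on the first probe set. Of 4736 genes, each by its brightest probe set, 57 fell further than Cldn3. Some airway markers moved with it. Of 7 measured, 4 fell and 0 rose in culture, against 34.6% of all genes called. In fresh TI cells 4 were lower and 3 (Krt5, Tp63 and Muc5ac) higher, by 0.34 to 0.45, against 54.2% of all genes called. The summed signal of the 7, to which bright genes add most, was 8.98 to 9.60 in cultured TII, 9.20 to 9.27 in fresh TI and 12.1 to 12.3 in fresh TII cells. Among them the club cell gene Scgb1a1 differed by -2.62 ± 0.14 in culture. The part of airway cells in the Cldn3 signal was not tested.

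Gja1 encodes connexin 43, the most widely made connexin. It had 8.34, 8.24 and 8.41 in cultured TII cells, against 5.27, 5.61, 5.19 and 5.39 in fresh TII cells. The 3 cultured arrays lay close together, and the lowest was 2.63 above the highest fresh TII array. The difference was 2.96 ± 0.15 (adjusted p = 7.9e-09), and 18 of 4736 genes rose further. The only Gja1 probe set also carries the mark for shared sequence. Of 16 markers of fibroblasts and smooth muscle 5 rose and 1 fell in culture, against 34.6% of all genes called. Their summed signal was 11.9 to 12.3 in cultured TII, 11.1 to 12.0 in fresh TI and 10.2 to 10.6 in fresh TII cells. The 5 that rose were the actin-binding protein Tagln by 5.03 ± 0.12, the matrix proteins Fbln5 by 3.18 ± 0.12, Bgn by 2.63 ± 0.10 and Mgp by 1.91 ± 0.19, and the smooth muscle actin Acta2 by 0.47 ± 0.11, and Eln fell by 0.64 ± 0.21. The other 10 did not pass the test and lay between -0.77 (Col3a1) and 0.99 (Col1a1, adjusted p = 0.0532). Set against fresh TII, the fresh TI arrays had 9 of the 16 markers raised and 0 reduced. Of all genes 54.2% were called there, 33% higher and 21.2% lower. Of the 5 markers that rose in culture, Fbln5 was higher in fresh TI cells by 2.33 ± 0.11 and Bgn by 0.86 ± 0.09. Tagln was higher by 0.28, a call that ended under each of the 3 other scalings, and Mgp (0.10) and Acta2 (0.02) did not pass the test. Gja1 did not pass the test between those groups. The part of fibroblasts and smooth muscle in the Gja1 signal was not tested.

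Epcam had 10.7, 10.7 and 10.3 in cultured TII cells, against 8.84, 8.93, 8.76 and 8.88 in fresh TII cells. Every cultured array exceeded every fresh TII array. The difference was 1.72 ± 0.14 (adjusted p = 4.32e-07), and 73 genes rose further. Epcam and Cldn3, both surface proteins of epithelial contacts, therefore moved in opposite directions on the same 3 cultured arrays.

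Gjb1, which encodes connexin 32, had 5.91, 5.93 and 6.24 in cultured TII cells, against 6.76, 6.93, 6.73 and 6.68 in fresh TII cells. The groups did not overlap, and the difference was -0.75 ± 0.10 (adjusted p = 3.6e-05). Gjb2, which encodes connexin 26, had 5.04, 4.86 and 4.81 in cultured TII cells, against 4.79, 4.91, 4.79 and 4.81 in fresh TII cells. Its groups overlapped, and the difference of 0.08 had a 95% interval of -0.12 to 0.27 (adjusted p = 0.595). Gjb2 was dimmer than the array median on all 11 arrays, so a small change would be hard to see. A probe set with the same accession in its name, X51615_at, is annotated to another gene, Pzp, and lay at 1.64 to 1.83 on all arrays, near the bottom of the scale.

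A measure of RNA quality moved with the culture. The beta-actin control probe sets differed, as 3′ minus 5′ signal (log2), by -0.33 to -0.08 in cultured TII, by 0.21 to 0.43 in fresh TI and by 0.32 to 0.43 in fresh TII cells. Those of GAPDH differed by 0.30 to 0.45, 0.41 to 0.69 and 0.47 to 0.57. Its part in the junction differences was not tested.

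**Figure D2:**
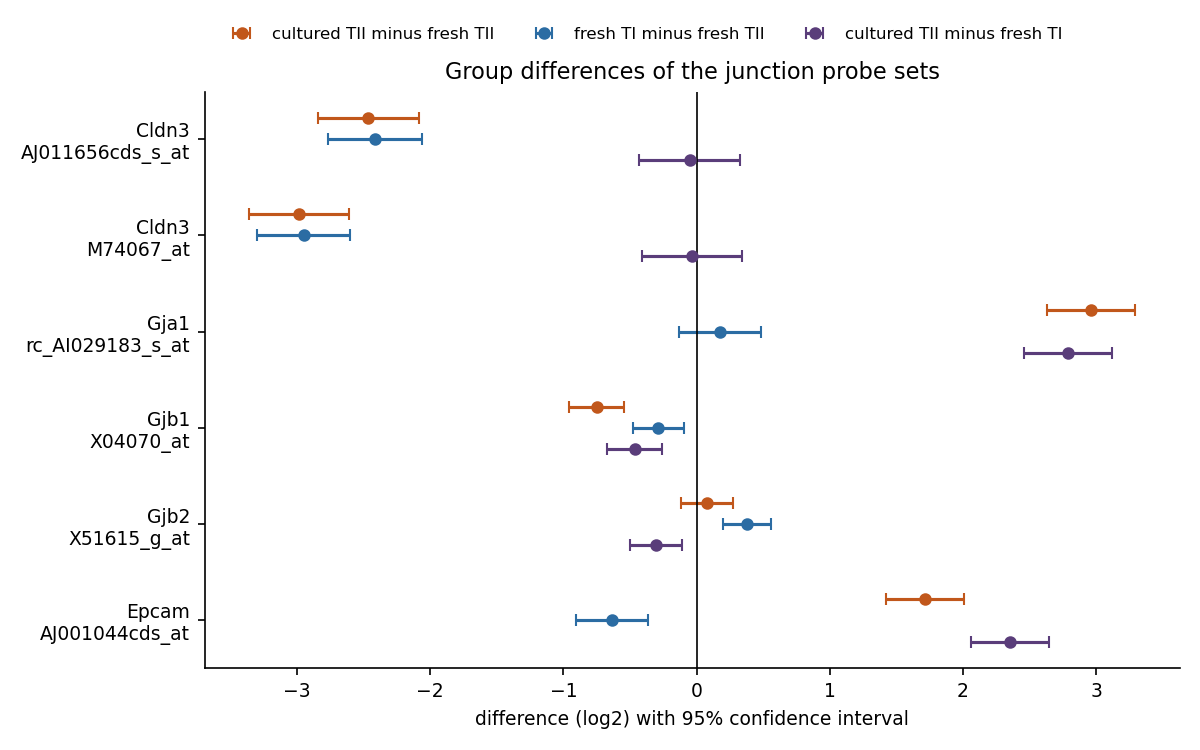
Differences between groups (log2, x axis) for the 6 member probe sets, in the 3 comparisons, with 95% confidence intervals from the model. Both Cldn3 probe sets sit near -2.4 and -3.0 against fresh TII in cultured TII and in fresh TI cells, and close to 0 between those groups, while Gja1 and Epcam are far above 0 in both comparisons of cultured TII cells.

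The second comparison asked how the fresh cell types of the alveolus differ. Cldn3 was lower in fresh TI cells by 5.33-fold and 7.73-fold on its probe sets, Epcam by 1.55-fold and Gjb1 by 1.22-fold. Gjb2 was 1.30-fold higher, and Gja1 did not pass the test. That made 1 probe set higher and 4 lower, against 54.7% of all probe sets called in this comparison, 34.3% higher and 20.4% lower. The median of all probe sets was itself 0.12 (log2) higher in fresh TI cells, and 0.04 to 0.08 higher after 3 other scalings of the arrays, so small differences are read against that shift. No overlap between these groups was seen for 5 of 6, against 50.7% of all probe sets.

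Cldn3 had 8.20, 8.40, 8.50 and 8.21 in fresh TI cells on its first probe set, against the fresh TII values near 10.7 given above. The lowest fresh TII array lay 2.17 above the highest fresh TI array. The difference was -2.41 ± 0.16 (adjusted p = 9.87e-08), with 47 genes lower still. The second probe set had 6.49, 6.79, 6.70 and 6.08 in fresh TI cells, against 9.37 to 9.58 in fresh TII cells, and differed by -2.95 ± 0.16 (adjusted p = 1.26e-08). The Cldn3 signal left in fresh TI cells was thus 18.8% and 12.9% of that in fresh TII cells. For comparison, the 6 TII markers lay on both sides of Cldn3. Muc1, an apical mucin, differed by -4.03 ± 0.23 and the surfactant genes Sftpb and Sftpa1 by -3.27 ± 0.30 and -3.21 ± 0.47. Alpl differed by -2.50 ± 0.09, and the surfactant genes Sftpd and Sftpc by only -1.81 ± 0.25 and -1.19 ± 0.29.

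The fresh TI arrays were not alike. Replicate 4 had the lowest summed TII markers, at 11.83, and replicates 2 and 3 the highest, at 13.19 and 13.27. Replicate 4 was also lowest for the second Cldn3 probe set and for Gja1. For the first Cldn3 probe set and Epcam, however, replicate 1 was lowest. Replicates 2 and 3 were highest for both Cldn3 probe sets, Gja1 and Epcam. Their Gja1 values, 5.88 and 5.74, were also above the highest fresh TII array, at 5.61. The summed leukocyte markers took a like order, at 11.51 on replicate 4 and 12.54 to 13.06 on the others. TII cells also make 2 of these markers, Cd74 and the brightest of them, Lyz2, at 10.77 to 12.71 on the fresh TI arrays. Whether carried-over cells set this spread was not tested.

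Epcam had 7.96, 8.32, 8.55 and 8.05 in fresh TI cells, against 8.76 to 8.93 in fresh TII cells. Every fresh TI array lay below every fresh TII array, and the difference was -0.63 ± 0.12 (adjusted p = 0.00119). After quantile normalization it narrowed to -0.38 and remained past the test (adjusted p = 0.016, within 0.000241 to 0.016 over all alternatives).

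Gja1 had 5.34, 5.88, 5.74 and 5.20 in fresh TI cells, against 5.19 to 5.61 in fresh TII cells. The groups overlapped, and the difference of 0.17 had a 95% interval of -0.13 to 0.48 (adjusted p = 0.306). Gjb1 had 6.43, 6.61, 6.47 and 6.44 in fresh TI cells, against 6.68 to 6.93 in fresh TII cells, a difference of -0.29 ± 0.09 (adjusted p = 0.0161). The gap between these groups was 0.08, and the call ended without fresh TII replicate 2, the highest array (-0.23, adjusted p = 0.0544). Gjb2 had 5.16, 5.43, 5.15 and 5.09 in fresh TI cells, against 4.79 to 4.91 in fresh TII cells. It was higher by 0.38 ± 0.08 (adjusted p = 0.00256), 0.30 to 0.42 over the alternatives.

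The third comparison set cultured TII against fresh TI cells, the type that TII cells are known to give rise to. Gja1 was 6.91-fold and Epcam 5.10-fold higher in cultured TII cells, Gjb1 1.38-fold and Gjb2 1.23-fold lower, and Cldn3 was not separated. That made 2 probe sets higher and 2 lower, against 59.9% of all probe sets called, 24.2% higher and 35.7% lower. Arrays of these groups were apart for 4 of 6, against 57.3% of all probe sets. This comparison shares its arrays with the other 2, so its values are not independent of theirs.

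Gja1 differed by 2.79 ± 0.15 (adjusted p = 2.01e-08), with 13 genes higher still, and Epcam by 2.35 ± 0.14 (adjusted p = 2.99e-08), with 25. The gap between the nearest arrays was 2.35 for Gja1 and 1.78 for Epcam. Gjb1 differed by -0.46 ± 0.10 (adjusted p = 0.00125). Gjb2 differed by -0.30 ± 0.09 (adjusted p = 0.0126), a call that ended after quantile normalization (-0.22, adjusted p = 0.0727) and with all arrays set to 1 median and SD (-0.22, adjusted p = 0.0703). It also ended without cultured TII replicate 3 (-0.25, adjusted p = 0.0544).

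Cldn3 differed by -0.05 on one probe set, with a 95% interval of -0.43 to 0.33, and by -0.03 on the other, with -0.41 to 0.34 (adjusted p = 0.809 and 0.868). The intervals allow a level in cultured TII cells from 0.742 to 1.26 times that in fresh TI cells on the first and from 0.753 to 1.27 times on the second. They rest on a spread shared by all groups. On the first probe set the SD was 0.50 in cultured TII, 0.15 in fresh TI and 0.06 in fresh TII cells, so its interval may be too narrow. The array of lowest Cldn3, cultured TII replicate 3, turned the sign of both when left out, to 0.21 and 0.12. Quantile normalization moved the first to -0.41, just past the test (adjusted p = 0.0496, within 0.0496 to 0.994 over its alternatives).

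Genes that belong with the members were counted on 4 lists of junction parts, for tight junctions, adherens junctions, desmosomes and gap junctions. They held 30 measured genes, 5 of them members. In cultured against fresh TII cells 5 rose and 7 fell, against 34.6% of 4736 genes called, 20.5% higher and 14% lower, and the median was -0.06 against -0.01 for all genes. In fresh TI against fresh TII cells 10 were higher and 10 lower, against 54.2% of genes called, 33% higher and 21.2% lower, with a median of 0.16 against 0.11. In cultured TII against fresh TI cells 7 were higher and 10 lower, against 60% of genes called, 25.8% higher and 34.2% lower, with a median of -0.15 against -0.11.

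**Figure D3:**
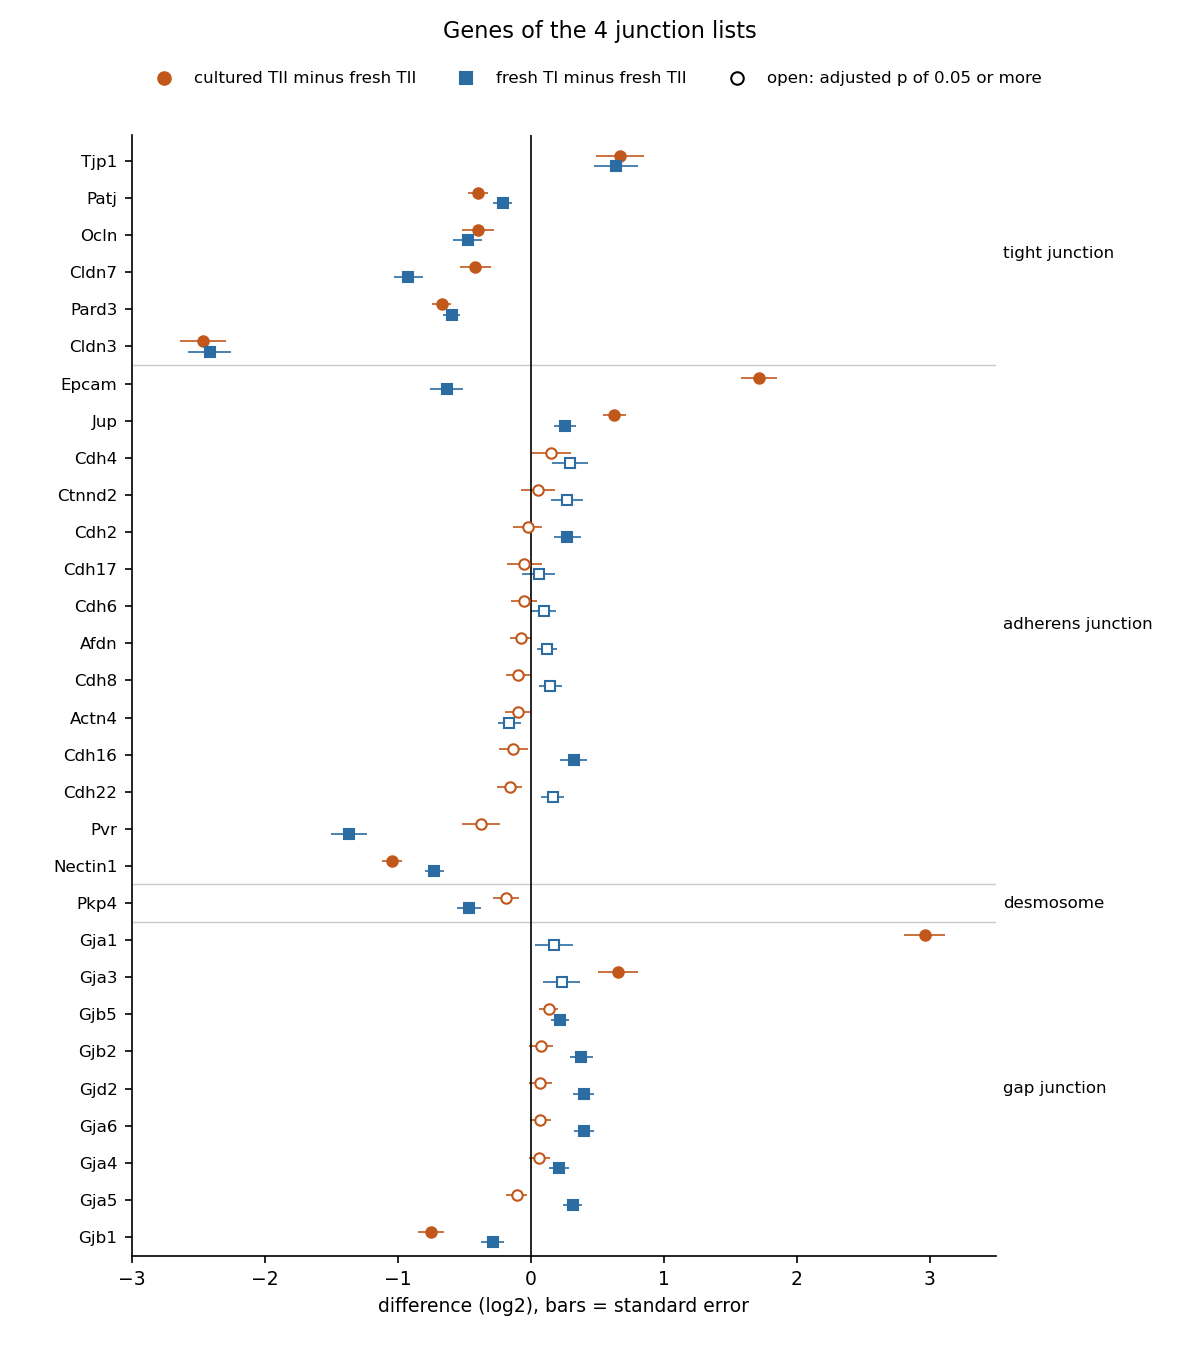
Differences from fresh TII cells (log2, x axis) for the 30 measured genes of the 4 junction lists, each by its brightest probe set, with standard errors. Circles are cultured TII and squares fresh TI cells, and open symbols did not pass the test. All 6 tight junction genes are filled in both comparisons, Tjp1 to the right of 0 and the others to the left. The cadherins lie near 0, and several of them were dimmer than the array medians in every group.

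Of 24 listed tight junction genes 6 were measured. All 6 passed the test against fresh TII cells, in culture and in fresh TI cells, against 34.6% and 54.2% of all genes called. In both, 5 were lower (against 14% and 21.2% of all genes) and Tjp1 was higher, also under each of the 3 other scalings. Some of these calls rested on single arrays. In culture that of Cldn7 ended without cultured TII replicate 3 (-0.29, adjusted p = 0.0738), and that of Ocln without cultured TII replicate 2 (-0.27, adjusted p = 0.11) or fresh TII replicate 3 (-0.33, adjusted p = 0.0578). That of Patj in fresh TI cells ended without fresh TI replicate 1 or 3 or fresh TII replicate 2 or 3 (-0.21 to -0.18, adjusted p up to 0.0757). Tjp1 encodes ZO-1, the scaffold that ties claudins to actin, and differed by 0.67 ± 0.18 in cultured TII and 0.64 ± 0.17 in fresh TI cells. Pard3, a polarity protein, differed by -0.67 ± 0.07 and -0.59 ± 0.06, and its partner scaffold Patj by -0.40 ± 0.08 and -0.21 ± 0.07. Cldn7, another claudin, differed by -0.42 ± 0.12 in cultured TII and -0.92 ± 0.11 in fresh TI cells. Occludin (Ocln), the first membrane protein found in tight junctions, differed by -0.40 ± 0.12 and -0.48 ± 0.11. For culture, other probe sets did not all follow, with -0.12 for Cldn7 and 0.04 for Ocln not past the test and -0.55 for Ocln past it. The mean of the Cldn7 probe sets, -0.27, did not pass either (adjusted p = 0.081). The other probe sets were lower in fresh TI cells too, by -0.93 for Cldn7 and by -0.51 and -1.22 for Ocln. Cldn7 was also higher in cultured TII than in fresh TI cells, by 0.50 ± 0.12 and, on its other probe set, by 0.81. The brightest Ocln probe set did not pass there (0.08), but its other 2 did, at 0.56 and 0.67.

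Of 14 measured adherens junction genes 2 rose and 1 fell in culture, or 21.4% called, against 34.6% of all genes. Besides Epcam, plakoglobin (Jup), a catenin of adherens junctions and desmosomes, rose by 0.63 ± 0.09 (adjusted p = 7.05e-05). It had 8.73 to 9.05 in cultured TII, 8.44 to 8.61 in fresh TI and 8.17 to 8.35 in fresh TII cells, with no overlap between groups. Its difference of 0.26 ± 0.08 between fresh TI and fresh TII cells lost its call without fresh TII replicate 3 (0.22, adjusted p = 0.0507). That of 0.37 ± 0.09 between cultured TII and fresh TI cells lost its call after quantile normalization and with all arrays set to 1 median and SD. Nectin1, an adhesion molecule that joins cells beside the cadherins, fell by 1.05 ± 0.08 in culture and was lower in fresh TI cells, by -0.73 ± 0.07. Pvr, a nectin-like adhesion molecule, was lower in fresh TI than in fresh TII cells by -1.37 ± 0.13 (adjusted p = 3.37e-06), and its difference of -0.38 in culture did not pass the test. Neural cadherin Cdh2 differed by -0.02 in culture (adjusted p = 0.916). Cdh2, Cdh4, Cdh6, Cdh8 and Cdh17 were dim, with group means of at most 4.74, below the array medians of 5.43 to 5.51. Small changes of these cadherins would be hard to see. In fresh TI cells Cdh2 was higher by 0.28, and this call ended under each of the 3 other scalings. Cdh16 was 0.32 ± 0.10 higher in fresh TI cells, a call that ended without fresh TII replicate 1 (0.28, adjusted p = 0.0599), and Cdh22 differed by 0.17, not past the test. Both were lower in cultured TII than in fresh TI cells, by -0.45 and -0.32, although another Cdh22 probe set gave -0.04. The only desmosome gene measured, Pkp4, was lower in fresh TI than in fresh TII cells by -0.46 ± 0.09 and differed by -0.19 in culture, not past the test.

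Of 9 measured gap junction genes 2 rose in culture, Gja1 and Gja3, against 20.5% of all genes higher. Gja3, connexin 46, rose by 0.65 ± 0.15 (adjusted p = 0.00409), with 5.65 to 6.38 in cultured TII, 5.33 to 5.70 in fresh TI and 5.26 to 5.32 in fresh TII cells. Gjb1 was the 1 connexin that fell, against 14% of all genes lower. The other connexins on the list, Gja4, Gja5, Gja6, Gjb2, Gjb5 and Gjd2, differed by -0.11 to 0.14 in culture and did not pass the test, apart from a second Gjb5 probe set at 0.37 that did. In fresh TI cells 6 of 9 were higher, by 0.21 to 0.40, and 1 was lower, against 33% and 21.2% of all genes. The 5 beside Gjb2 were Gja6 at 0.40 ± 0.07, Gjd2 at 0.40 ± 0.08, Gja5 at 0.32 ± 0.07, Gjb5 at 0.22 ± 0.07 and Gja4 at 0.21 ± 0.07. Like Gjb2, Gja6 and Gjd2 were dim, with group means of at most 5.04 and 4.83, below the array medians of 5.43 to 5.51. Over all probe sets, 2996 were higher and 1787 lower in this comparison, but 1337 and 1334 without those dimmer than the median. These differences are to be set beside the overall shift of 0.12, and the call of Gja4 ended with arrays centred on their median and without fresh TI replicate 3 or fresh TII replicate 1, 3 or 4 (0.17 to 0.21, adjusted p up to 0.0777). Other probe sets gave 0.23 and 0.10 for Gja5 and 0.36 and 0.00 for Gjb5, the lower of each pair not past the test.

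The Wnt branch of beta-catenin was counted on a list of 13 measured genes, since Ctnnb1 was not measured by a probe set of its own. In culture 4 rose and 3 fell, against 34.6% of all genes called, and in fresh TI cells 3 were higher and 3 lower, against 54.2%. The receptor Fzd2 rose by 2.66 ± 0.16 in culture, with 7.67 to 8.42 in cultured TII, 7.27 to 7.42 in fresh TI and 5.11 to 5.52 in fresh TII cells. It was thus higher in fresh TI than in fresh TII cells too, by 2.02 ± 0.15. Axin2, a scaffold of the beta-catenin degradation complex and a known Wnt target, was lower in both, by -0.96 ± 0.09 in culture and -0.59 ± 0.09 in fresh TI cells. Ruvbl1, a helicase that binds beta-catenin, rose by 0.43 ± 0.13 in culture and was lower in fresh TI cells by -0.89 ± 0.12, while its other probe set gave 0.02 in culture, not past the test, and 0.27 in fresh TI cells, past it in the opposite direction. The call in culture ended without cultured TII replicate 1 (0.30, adjusted p = 0.0965) or fresh TII replicate 3 (0.36, adjusted p = 0.0549). The kinases Csnk1d and Csnk1a1 differed by 0.43 ± 0.09 and 0.07 in culture and by -0.20 and -0.47 ± 0.12 in fresh TI cells. Csnk1a1 in culture and Csnk1d in fresh TI cells did not pass the test, and other probe sets gave -0.01 for Csnk1d in culture and, against the direction of the first, 0.25 for Csnk1a1 in fresh TI cells. The scaffold Apc was 0.34 ± 0.08 higher in fresh TI cells, and its call in culture (-0.23) ended under 2 of 3 other scalings and was 0.09 and 0.03 on its other probe sets, not past the test.

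Repressors of E-cadherin and genes of a mesenchymal state formed a list of 12 measured genes. Of these 2 rose and 3 fell in culture, against 20.5% and 14% of all genes. In fresh TI cells 8 lay above and 2 below fresh TII, against 33% and 21.2% of all genes. Under the 3 other scalings that split became 5 or 6 above and 3 below. The repressors Snai2, Zeb1 and Twist2 had group means of at most 4.91, below the array medians of 5.43 to 5.51, so small changes would be hard to see. In culture Snai2 differed by 0.05, Zeb1 by -0.08 and Twist2 by -0.01, none past the test. In fresh TI cells Snai2 was higher by 0.36 and Zeb1 by 0.28, and both calls ended after quantile normalization. The call of Snai2 also ended without fresh TI replicate 1 or 4, or without any 1 of the 4 fresh TII arrays. Tcf4, a factor that binds E-boxes, was higher in fresh TI cells by 0.34 ± 0.08 (adjusted p = 0.00267), also under the 3 other scalings. It was dim as well, with group means of at most 4.55. Fn1, the matrix protein fibronectin, rose by 5.68 ± 0.14 in culture, and the filament protein Vim by 2.42 ± 0.45. In fresh TI cells they were higher by 2.26 ± 0.13 and 1.76 ± 0.42, and S100a4 by 1.65 ± 0.29. Vim spread over 7.26 to 9.44 on the fresh TI arrays and overlapped fresh TII cells, at 6.55 to 7.37. S100a4 spread over 5.79 to 7.52 on the fresh TI arrays, against 5.07 to 5.62 in fresh TII cells. The 4 other Fn1 probe sets gave smaller differences, of 2.08 to 3.95 in culture and 0.14 to 0.90 in fresh TI cells, where the lowest did not pass the test. The Id genes, which encode inhibitors of E-box binding factors, were split. Id2 and Id1 were lower in both comparisons, Id2 by -1.83 ± 0.33 in culture and -2.23 ± 0.31 in fresh TI cells and Id1 by -0.94 ± 0.09 and -0.83 ± 0.08, while Id3 fell by 0.56 ± 0.14 in culture and was 0.48 ± 0.13 higher in fresh TI cells. A second Id1 probe set gave -0.12 and 0.16, not past the test.

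Genes nearest in pattern were sought for the 3 members whose group means spanned more than 1 (log2), by the root mean square difference over the 11 arrays after centring each probe set on its mean. Nearest to Cldn3 were the RNA-decay factor Zfp36l1 at 0.159, the endocytic receptor Lrp2 at 0.252 and the AP-1 subunit Jun at 0.267, where the median gene stood at 1.25. Each was lower than in fresh TII cells in both other groups, Zfp36l1 by -2.30 in culture and -2.41 in fresh TI cells. Nearest to Gja1 were the mitochondrial creatine kinase Ckmt1 at 0.240, the secreted chaperone Clu at 0.320 and the disulphide isomerase Pdia4 at 0.362, against a median of 1.34. Nearest to Epcam were the glycolytic enzyme Aldoa at 0.148, Rps27l at 0.150 and Rasl11b at 0.185, against a median of 1.02. Aldoa differed by 1.87 in culture and by -0.58 in fresh TI cells, beside 1.72 and -0.63 for Epcam. All 11 arrays of each gene share the same 3 groups, so this likeness is a description.

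**Figure D4:**
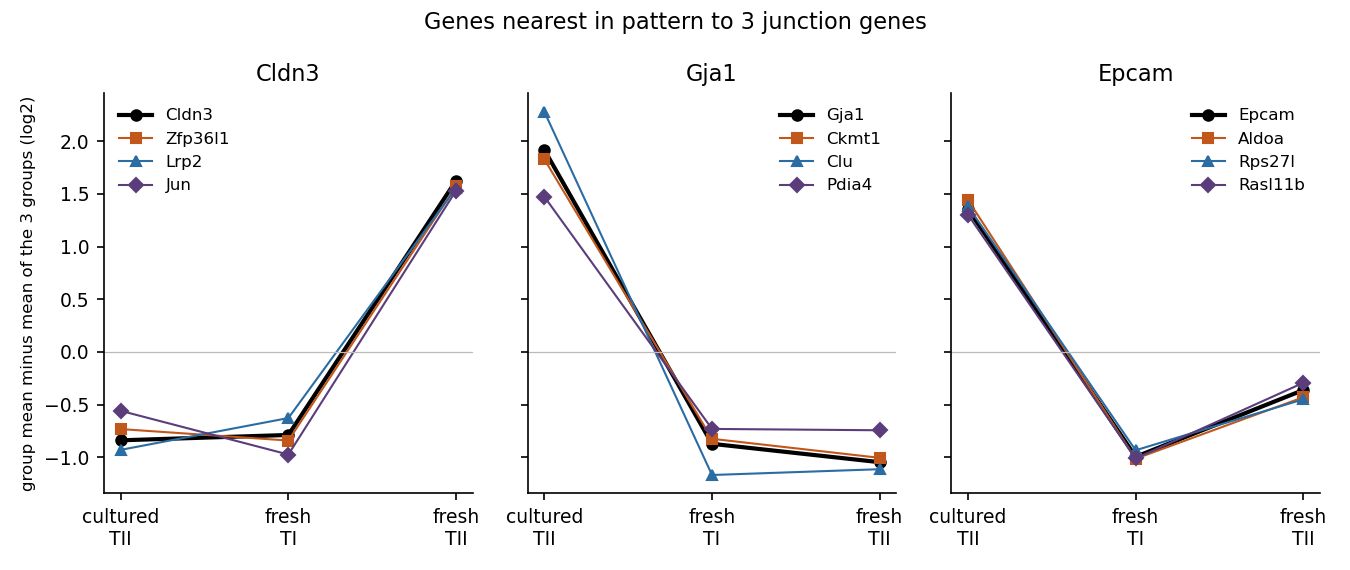
Group means of 3 members (black) and of the 3 genes nearest to each in pattern, each minus the gene's mean over the 3 groups (log2, y axis), by group (x axis). The Cldn3 set is high in fresh TII cells, the Gja1 set is high in cultured TII cells, and the Epcam set is highest in cultured TII and lowest in fresh TI cells.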

How the data were processed

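Values on a log2 scale, 1 per probe set and array, were used as the authors deposited them. Summarisation, background correction and normalization are not given in the sources used here. No label states the base of the logarithm, which rests on the range: the highest value, 13.16, would stand for 520737 as a natural logarithm, above the 65535 of a 16-bit scanner, and for 9172 as log2. Array medians lay at 5.43 to 5.51, and no filter on dim signal was used. The 59 control probe sets were kept apart. The platform annotation gave exactly 1 gene for 7006 of 8740 probe sets, several for 308 and none for 1426, and 6985 of the 7006 matched the current rat gene table by Entrez identifier.

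With limma 3.58.1 in R 4.3.3, the means of the 3 groups were estimated from the 11 arrays together (lmFit, eBayes, two-sided). For each probe set the groups shared 1 estimate of the spread. P-values were adjusted by Benjamini-Hochberg over the 8740 probe sets of a comparison, with calls at an adjusted p under 0.05. A gene was represented by its brightest probe set. The procedure was tested on simulated data, with few probe sets changed and the same spread in every group, unlike these arrays. Precision is limited by 3 or 4 arrays a group. Members, lists and the naming rule were chosen with earlier results of these data known, and the motifs after the sequences had been seen. Named were all member probe sets, up to 6 called genes a list by the greatest difference, the 3 genes nearest in pattern to members spanning over 1 (log2), and a few markers; repressors and single markers named beside these were chosen after their values were seen. Alternatives were 3 scalings, 2 filters on dim probe sets, other variance models, array weights, fits on 2 groups, a replicate block, gene means and each array left out. Same-numbered arrays were not treated as paired: their deviations correlated at -0.20 to 0.28 over 10 pairs, against -0.27 to 0.23 over 30 other pairs.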

Additional observations from a re-analysis of the deposited data

Results flagged for a closer look

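In 72 tests of groups of 4 arrays, over the member probe sets and the named junction, Wnt and repressor genes, 1 array stood apart from the rest of its group by Dixon's criterion. Gjb2 read 4.91 (log2) on fresh TII replicate 2, where the nearest array read 4.81 and the lowest 4.79. The gap was 0.838 of the group's range, just above the 95% critical value. Chance flags about 1 in 20 groups. Gjb2 remained higher in fresh TI than in fresh TII cells with each array left out in turn.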

How the results depend on the processing

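Of 375 values of member differences under alternatives, 364 kept their direction and their side of the threshold. Sign turns were confined to Cldn3 between cultured TII and fresh TI cells, where it did not pass the test: 0.014 on the second probe set with arrays centred on their median, and also without cultured TII replicate 3 or fresh TI replicate 3 for both probe sets, and without fresh TI replicate 2 for the second. Over all 11 left-out arrays the values ran from -0.29 to 0.21 on the first and from -0.22 to 0.12 on the second. The 5 other changes, in Gjb1, Gjb2 and Cldn3, are given with their results. Without probe sets dimmer than the median, which removes Gjb2, junction list genes called between cultured TII and fresh TI cells were 10 of 19 in place of 17 of 30. All probe sets called were then 2671 in place of 4783 between fresh TI and fresh TII and 2993 in place of 5235 between cultured TII and fresh TI cells, with fewer probe sets tested. With all arrays set to 1 median and SD, calls between fresh TI and fresh TII cells split into 2252 higher and 2005 lower, in place of 2996 and 1787, and between cultured TII and fresh TI cells into 2323 and 2294, in place of 2111 and 3124. With the replicate block, 5, 5 and 4 member probe sets were called in the 3 comparisons, as without it. Leaving out 1 array gave 5, 4 to 5 and 3 to 4. The dim signal of Gjb2, below the array median throughout, limits what can be said of it.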
